A study of Mus musculus with 4 samples.

Results

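The genes described here mark mucous neck cells and pyloric-type metaplasia of the stomach. They were 10 genes listed by name, read from probe sets that the platform annotation gives 1 gene symbol, and 9 of the 10 were measured among 22180 genes. Glipr1 has no probe set with its symbol alone, so no value is given for it. The samples were 4 pieces of stomach tissue from FVB mice aged 1 year, kept in a specific-pathogen-free barrier on the same diet. There were 2 samples labelled Hdc+/+ and 2 labelled Hdc-/-, each on 1 Affymetrix array, and the arrays of a genotype are called array 1 and array 2 after the replicate numbers in the labels. Histidine decarboxylase, the product of Hdc, converts histidine to histamine. The sources used here do not say how the Hdc allele was made. The titles speak of biological replicates without naming animals, so each p-value reflects only how far these samples spread, which may be technical.

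Mucous neck cells sit in the middle of the gland of the gastric corpus, between the pit cells above and the chief cells below, and secrete the gland-type mucin MUC6 together with the trefoil peptide TFF2. In pyloric-type metaplasia, also called spasmolytic polypeptide-expressing metaplasia after an older name for TFF2, glands of an injured corpus lose parietal cells and chief cells take on mucous features. The metaplastic cells add further markers, among them the secreted protein WFDC2 (HE4), a variant of the adhesion receptor CD44, clusterin and the chemokine CXCL17. The normal antrum carries MUC6 and TFF2 in its glands too, and Sox9 and Cftr are also expressed in ducts and intestine. The samples were pieces of bulk tissue, so a change in the number of such cells and a change in RNA per cell cannot be told apart.

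The first principal component of the 22180 genes held 58.5% of the variance, with the Hdc+/+ arrays at -11.32 and -51.29 and the Hdc-/- arrays at 33.75 and 28.86. Markers of other tissues differed between the genotypes. On both Hdc-/- arrays, 14 of 14 measured hepatocyte markers, 12 of 14 squamous, 11 of 15 intestinal and 7 of 9 adipocyte markers lay below both Hdc+/+ arrays, against 17.6% of all genes. Markers also differed within Hdc+/+, where 14 of 14 hepatocyte, 11 of 11 pancreatic acinar and 14 of 15 intestinal markers read highest on array 2. Over all genes, 4396 of 22180 read highest on that array. The part of these tissues in the values below was not tested. On every array, 12 of 12 parietal and 10 of 10 pit cell markers, and 7 or 8 of 10 chief cell markers, lay above the gene median. That is a description across probes that does not tell stomach from the other tissues present. By genotype, 4 of 12 parietal markers lay above both Hdc+/+ arrays on both Hdc-/- arrays, and 1 lay below them. Of 10 pit cell markers, 1 lay above and 5 below. Of 10 genes listed for chief cells, 6 (Mboat4 among them) lay above and 1 (Ctsc) below. The shares over all genes were 21.5% above and 17.6% below. Kcne2 is on both the chief and the parietal list, and how particular the listed genes are to each cell type was not tested. The median log2 differences, Hdc-/- minus Hdc+/+, were 0.17 (parietal), -0.23 (pit) and 0.56 (chief), against 0.02 over all genes. Whether parietal, pit or chief cells changed in number was not tested. Hdc itself read 3.99 and 3.82 on the Hdc+/+ arrays and 3.77 and 4.06 on the Hdc-/- arrays. No source used here places its probes relative to the deleted part, so Hdc checks nothing and the directions rest on the labels.

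Promoter sequence was printed for the genes that stand for the main patterns below. Muc6 and A4gnt, the latter from the wider list of genes of these cells, were both highest on Hdc-/- array 1, Wfdc2 separated the genotypes, and Cftr was high on Hdc+/+ array 2. Each sequence is the 250 bases before the annotated start, from RefSeq. Wfdc2 has 2 starts listed there, of which the first listed was used. Of the 9 measured members, 4 had an entry there, namely Muc6, Wfdc2, Cd44 and Cftr. Capitals mark matches on either strand to TATAA (the core of a TATA box), GATAA (the core of a GATA-factor site), GGGCGG (a GC box) and AACAAT (the core of a SOX-factor site).
Muc6 (GRCm38.p6, chr7:141655394-141655643, minus strand): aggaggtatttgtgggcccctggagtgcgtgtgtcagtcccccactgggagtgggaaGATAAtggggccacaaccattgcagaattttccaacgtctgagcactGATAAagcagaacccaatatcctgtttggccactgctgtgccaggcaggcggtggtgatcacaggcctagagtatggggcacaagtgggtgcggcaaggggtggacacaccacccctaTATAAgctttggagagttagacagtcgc
A4gnt (GRCm38.p6, chr9:99612252-99612501, plus strand): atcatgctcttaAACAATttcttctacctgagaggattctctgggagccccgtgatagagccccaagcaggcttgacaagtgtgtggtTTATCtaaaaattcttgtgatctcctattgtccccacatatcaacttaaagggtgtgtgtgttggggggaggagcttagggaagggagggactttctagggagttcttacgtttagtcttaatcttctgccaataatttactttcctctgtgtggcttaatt
Wfdc2 (GRCm38.p6, chr2:164562465-164562714, plus strand): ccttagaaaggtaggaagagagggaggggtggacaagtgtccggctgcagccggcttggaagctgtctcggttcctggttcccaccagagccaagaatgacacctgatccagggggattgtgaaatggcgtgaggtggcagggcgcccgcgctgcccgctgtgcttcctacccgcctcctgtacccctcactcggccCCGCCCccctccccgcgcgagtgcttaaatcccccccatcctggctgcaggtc
Cftr (GRCm38.p6, chr6:18170437-18170686, plus strand): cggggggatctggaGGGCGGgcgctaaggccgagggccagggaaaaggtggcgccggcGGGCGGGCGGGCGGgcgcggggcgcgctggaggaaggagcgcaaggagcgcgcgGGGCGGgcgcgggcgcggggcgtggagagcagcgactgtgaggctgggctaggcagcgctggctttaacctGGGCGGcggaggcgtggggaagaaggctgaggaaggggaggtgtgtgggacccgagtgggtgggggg

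The 4 windows held different letters. Muc6 held 1 TATAA match, starting 28 bases before the start, and 2 GATAA matches, starting 193 and 146 bases before it. A4gnt held 1 GATAA match at 162 bases and 1 AACAAT match at 238 bases, and no TATAA. Wfdc2 held 1 GC box at 53 bases before the start used. Cftr held 6, of which the one at 188 bases overlaps those at 192 and 184 bases. Of 32851 promoter windows of this length, 22.8% held TATAA, 22.6% GATAA, 32.7% the GC box and 9.42% AACAAT. The Cftr window was 76.4% G or C and the A4gnt window 43.6%, against a median of 52.4%. A match is a description of the letters, and no factor's binding was measured.

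The 9 measured members showed several patterns over the 4 arrays. Sox9, Wfdc2 and Cxcl17 read higher on both Hdc-/- arrays than on both Hdc+/+ arrays. Muc6 was high on Hdc-/- array 1 alone, and Cftr on Hdc+/+ array 2 alone. Tff2 and Clu, with Cd44 and Dmbt1, had overlapping genotypes. By limma, 0 of the 9 passed at an adjusted p under 0.05 over all genes, where 1 gene (0.00451%) passed. That gene was H2-Ea, a class II histocompatibility gene (limma adjusted p = 0.0217). It read 3.36 and 3.02 on the Hdc+/+ arrays and 7.65 and 7.47 on the Hdc-/- arrays. Whether the genotypes differed in genetic background beyond Hdc was not tested. At an unadjusted p under 0.05, 2 of the 9 were higher and 0 lower, against 3.68% and 4.87% of all genes. Both Hdc-/- arrays lay above both Hdc+/+ arrays for 3 of 9 members, against 21.5% of all genes, and below them for 0 of 9, against 17.6%. Together that is 3 of 9 without overlap, near the background of 39.1%. The median log2 difference, Hdc-/- minus Hdc+/+, was 0.41 over the 9 members and 0.02 over all genes.

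**Figure D1:**
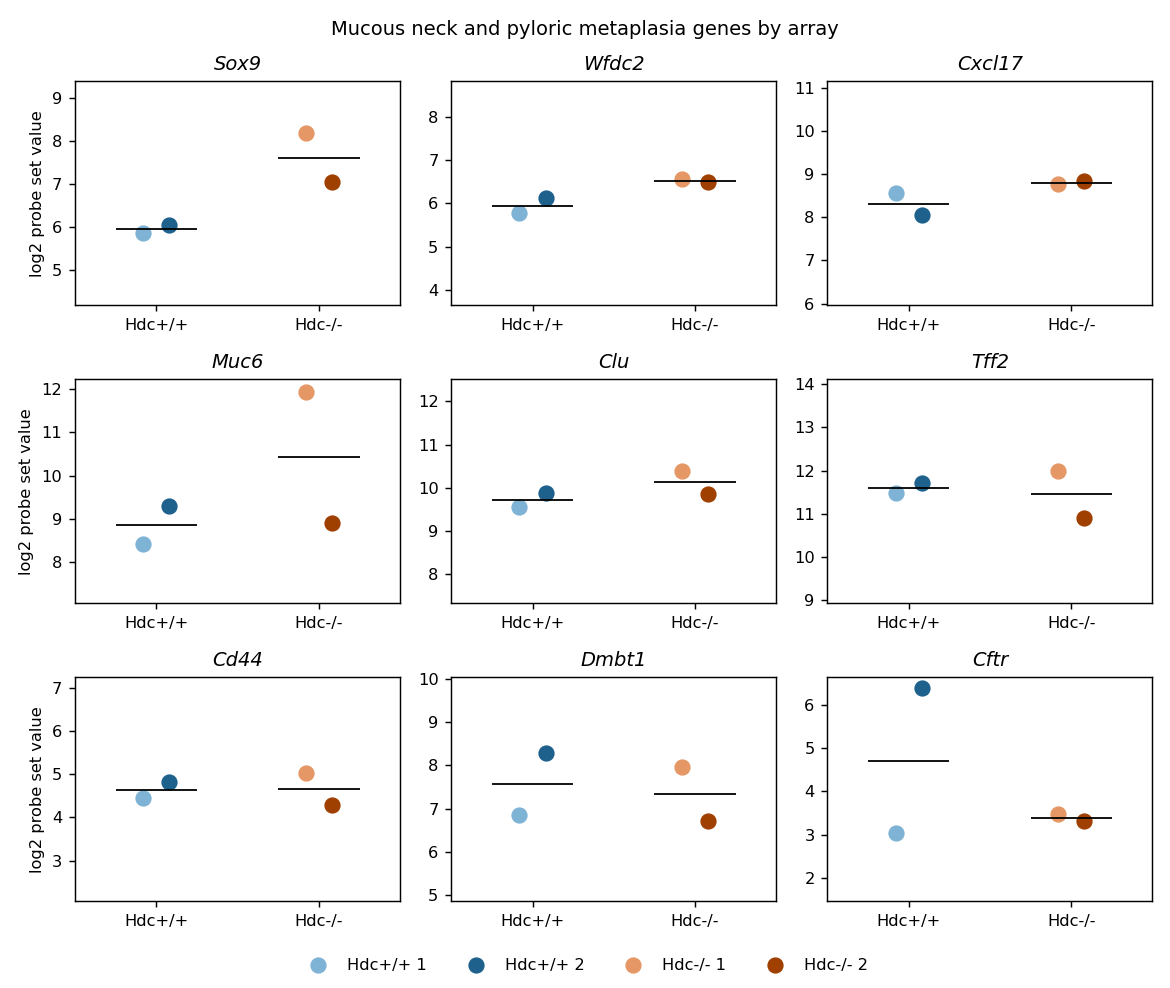
Log2 probe set values of the 9 measured members (vertical axis, the same span in each panel) by genotype (horizontal axis), 1 point per array, with a line at the mean of each group of 2. Sox9, Wfdc2 and Cxcl17 separate the genotypes, Muc6 is at 11.94 on Hdc-/- array 1 alone, and Cftr is at 6.39 on Hdc+/+ array 2 alone.

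Sox9, the gene of a transcription factor of progenitor and duct cells that marks glandular remodelling in several foregut organs, had the largest separation of the genotypes among the members. It read 5.86 and 6.06 on the Hdc+/+ arrays and 8.18 and 7.03 on the Hdc-/- arrays. Both Hdc-/- arrays lay above both Hdc+/+ arrays, with a gap of 0.98 between the nearest arrays of different genotype. On the log2 scale it differed by 1.65 (SE 0.38, n = 2 per group), which is 3.14-fold with a 95% interval from 1.63 to 6.07, and it did not pass over all genes (limma adjusted p = 0.378, unadjusted p = 0.0057). Of its variance over the 4 arrays, 80.0% lay between the genotypes, against a median of 31.3% over all genes. The separation was uneven, since the Hdc-/- arrays differed from each other by 1.15, more than the gap between genotypes. Without Hdc-/- array 1 the difference was 1.08, and without Hdc-/- array 2 it was 2.23.

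Wfdc2, which encodes a small secreted protein with whey acidic protein domains that is found in metaplastic glands, was the member whose arrays kept closest to genotype. It read 5.78 and 6.12 on the Hdc+/+ arrays and 6.56 and 6.49 on the Hdc-/- arrays. The Hdc-/- arrays agreed within 0.07 and both lay above the Hdc+/+ arrays, with 84.5% of the variance between genotypes. The log2 difference was small, at 0.57 (SE 0.19, n = 2 per group) or 1.49-fold, and did not pass over all genes (limma adjusted p = 0.502, unadjusted p = 0.0237). Wfdc2 lies on chromosome 2, as Hdc does, with 412 protein-coding genes between them in RefSeq's GRCm38.p6 annotation. Cd44 lies on the same chromosome with 243 between it and Hdc. Whether linkage to the Hdc locus played a part was not tested.

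Cxcl17, the gene of a mucosal chemokine that attracts myeloid cells, read 8.57 and 8.06 on the Hdc+/+ arrays and 8.76 and 8.83 on the Hdc-/- arrays. The genotypes did not overlap, but only 0.19 parted Hdc+/+ array 1 from Hdc-/- array 1, while the Hdc+/+ arrays differed by 0.51. The difference of 0.48 (SE 0.22, n = 2 per group) gave a limma adjusted p of 0.617. It was 0.22 without Hdc+/+ array 2 and 0.73 without Hdc+/+ array 1. With 2 arrays against 2, the smallest p of an exact two-sided permutation test is 0.333, so the separation alone cannot pass a test for any single member.

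**Figure D2:**
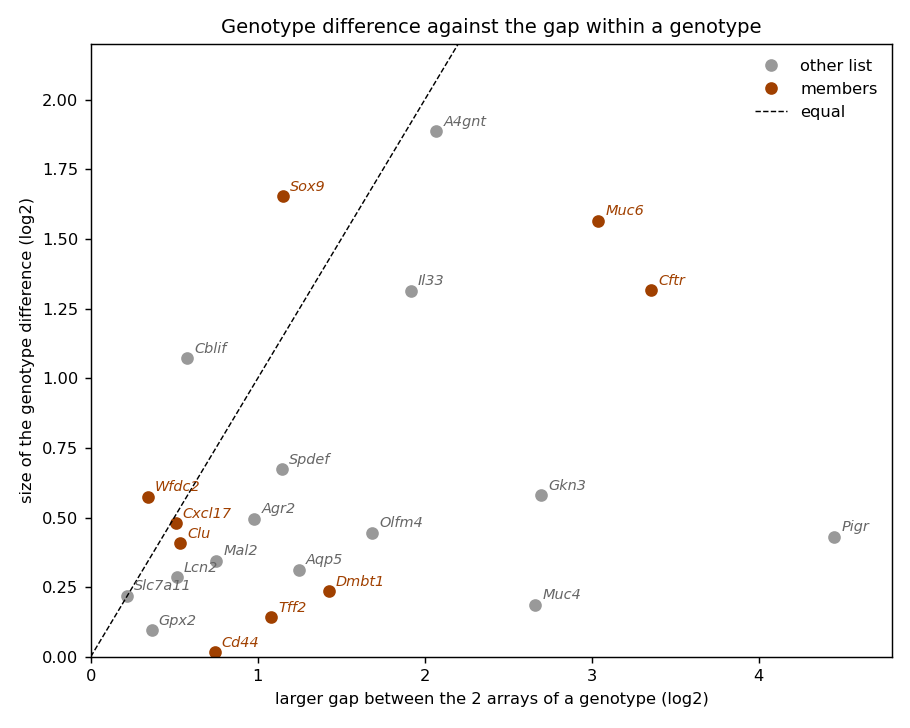
Size of the log2 genotype difference (vertical axis) against the larger of the gaps between the 2 arrays of a genotype (horizontal axis), for the 9 members and 14 other genes of these cells, 1 point per gene, with a dashed line where both are equal. Sox9 and Wfdc2 lie above the line among the members, and of the members Muc6 and Cftr have the widest gaps within a genotype, at 3.04 and 3.35.

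Muc6, the gel-forming mucin of neck cells and antral glands, followed 1 array. It read 8.40 and 9.30 on the Hdc+/+ arrays and 11.94 and 8.90 on the Hdc-/- arrays. Hdc-/- array 1 exceeded the mean of the other 3 arrays by 3.07, whereas Hdc-/- array 2 lay between the Hdc+/+ arrays. The fitted log2 difference was 1.57 (SE 0.96, n = 2 per group, limma adjusted p = 0.705), nearly as large as that of Sox9, but only 32.8% of the variance lay between genotypes. It was 0.05 without Hdc-/- array 1 and 3.08 without Hdc-/- array 2, so the difference rested on that array.

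Tff2, the trefoil peptide secreted with MUC6, did not share that pattern in size. It read 11.47 and 11.71 on the Hdc+/+ arrays and 11.99 and 10.91 on the Hdc-/- arrays. Hdc-/- array 1 was the highest of the 4 and Hdc-/- array 2 the lowest, so the Hdc-/- arrays enclosed the Hdc+/+ arrays. The difference was -0.14 (SE 0.37, 95% interval from -1.05 to 0.77, limma adjusted p = 0.958, n = 2 per group). It was -0.68 without Hdc-/- array 1 and 0.40 without Hdc-/- array 2.

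Clu, which encodes the extracellular chaperone clusterin, read 9.55 and 9.89 on the Hdc+/+ arrays and 10.39 and 9.86 on the Hdc-/- arrays. Hdc-/- array 1 was highest, and Hdc-/- array 2 lay just under Hdc+/+ array 2. The difference was 0.41 (SE 0.24, n = 2 per group, limma adjusted p = 0.696), at 0.14 without Hdc-/- array 1 and 0.68 without Hdc-/- array 2. Cd44, the hyaluronan receptor, read 4.46 and 4.83 against 5.04 and 4.29, again highest on Hdc-/- array 1 and lowest on Hdc-/- array 2. Its difference was 0.02 (SE 0.29, 95% interval from -0.71 to 0.74, n = 2 per group, limma adjusted p = 0.995). The probe set covers Cd44 by gene symbol, and no source used here says which splice variants it reads. Leukocytes carry CD44 too, and of 13 measured leukocyte markers 8 lay above the Hdc+/+ arrays on both Hdc-/- arrays, against 21.5% of all genes, and 1 lay below them, against 17.6%. Their median difference was 0.59 and limma passed 0 over all genes, while an unadjusted p under 0.05 was reached by 8, all higher. Of the 13, 6 were highest on Hdc-/- array 1, 4 on Hdc-/- array 2 and 3 on Hdc+/+ array 2. Over all 22180 genes the counts for these arrays were 6022, 6555 and 4396. The part of leukocytes in the Cd44 values was not tested.

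Dmbt1, a scavenger receptor cysteine-rich protein of mucosal secretions, split the arrays across genotypes. It read 6.85 and 8.28 on the Hdc+/+ arrays and 7.95 and 6.71 on the Hdc-/- arrays. Hdc+/+ array 2 and Hdc-/- array 1 were high, and the other two were low, with 1.10 between the pairs. The difference was -0.24 (SE 0.59, n = 2 per group, limma adjusted p = 0.956). It was 0.48 without Hdc+/+ array 2, 0.39 without Hdc-/- array 2, -0.86 without Hdc-/- array 1 and -0.95 without Hdc+/+ array 1.

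Cftr, the epithelial chloride and bicarbonate channel, was high on Hdc+/+ array 2 alone. It read 3.03 and 6.39 on the Hdc+/+ arrays and 3.48 and 3.31 on the Hdc-/- arrays. Hdc+/+ array 2 exceeded the mean of the other 3 by 3.11, and those 3 values lay below the median gene of their own array (4.56 to 4.60 over the 4 arrays). The difference was -1.32 (SE 1.01, n = 2 per group, limma adjusted p = 0.773). Without Hdc+/+ array 1 the lone Hdc+/+ array was the high one, the difference was -2.99 and Cftr passed (limma adjusted p = 0.0261). Without Hdc+/+ array 2 it was 0.36 in the opposite direction (limma adjusted p = 0.997). On the same array the median pancreatic acinar marker lay 2.28 above its mean over the 4 arrays, and the median intestinal marker 1.66. The median level of the 11 acinar markers was 4.12 and 9.50 on the Hdc+/+ arrays and 4.86 and 4.78 on the Hdc-/- arrays. Of 7 measured duct markers, 3 were highest on Hdc+/+ array 2 and 3 on Hdc-/- array 1, against 4396 and 6022 of all 22180 genes. The median duct marker lay only 0.24 above its mean over the 4 arrays on Hdc+/+ array 2, and 0.08 on Hdc-/- array 1. The part of pancreatic or intestinal tissue in the Cftr value was not tested.

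Genes that follow genotype were then compared with genes that follow 1 array by where the largest of the 3 gaps between a gene's sorted values falls, among genes whose values span at least 1 log2 unit. Of the 9 members 5 spanned that much, against 8.37% of all genes. Of these, 0 were parted by genotype, 4 had 1 array apart from the other 3 and 1 (Dmbt1) was parted across genotypes. Muc6 and Sox9 had Hdc-/- array 1 high, Tff2 had Hdc-/- array 2 low and Cftr had Hdc+/+ array 2 high. Among the 1856 genes of that span, 16.4% were parted by genotype, 78.9% had 1 array apart and 4.63% were parted across genotypes. Hdc-/- array 1 stood alone as high in 15.5% of them, Hdc+/+ array 2 as high in 28.1% and Hdc-/- array 2 as low in 8.35%. Sox9 was close to the border, since its largest gap of 1.15 was within the Hdc-/- arrays and its gap between genotypes was 0.98, and after quantile normalization of the deposited values it was the 1 member parted by genotype. Wfdc2 was the 1 member parted by genotype with no floor on the span or a floor of 0.5, its own span being 0.78.

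Within a genotype the members leaned one way. On the Hdc-/- arrays, 8 of 9 members read higher on array 1 than on array 2, against 46.9% of all genes. On the Hdc+/+ arrays, 8 of 9 read higher on array 2 than on array 1, against 45.0% of all genes. Cxcl17 was the exception in both. Hdc-/- array 1 gave the highest value for 6 of 9 members, against 27.2% of all genes.

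The list of other mucous neck and pyloric metaplasia genes had 14 of its 15 genes measured. By limma 0 passed over all genes, and at an unadjusted p under 0.05 there were 2 of 14 higher and 0 lower, against 3.68% and 4.87% of all genes. The median difference was 0.27, against 0.02 over all genes. A4gnt, the glycosyltransferase that adds the terminal sugar typical of gland mucin, read 6.80 and 6.58 on the Hdc+/+ arrays and 9.61 and 7.54 on the Hdc-/- arrays. As for Sox9, both Hdc-/- arrays were above the Hdc+/+ arrays and array 1 was far above array 2. The difference was 1.89 (SE 0.64, n = 2 per group, limma adjusted p = 0.522). Cblif, the gene of gastric intrinsic factor made by mouse chief cells and kept in metaplastic cells, read 9.30 and 8.72 against 9.91 and 10.26 (difference 1.07, SE 0.25, n = 2 per group, limma adjusted p = 0.396). It was the 1 gene of this list parted by genotype by its largest gap, and unlike Muc6 it was higher on Hdc-/- array 2 than on array 1. Cblif is also on the chief cell list used above. Of the 7 genes of that list spanning at least 1 log2 unit, 2 were parted by genotype, against 16.4% of all genes of that span. Il33, an alarmin cytokine, differed by -1.31 (SE 0.62, limma adjusted p = 0.626), with Hdc-/- array 2 alone low at 5.95. Spdef, a transcription factor of mucous cell maturation, differed by 0.67 (SE 0.38, limma adjusted p = 0.679).

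**Figure D3:**
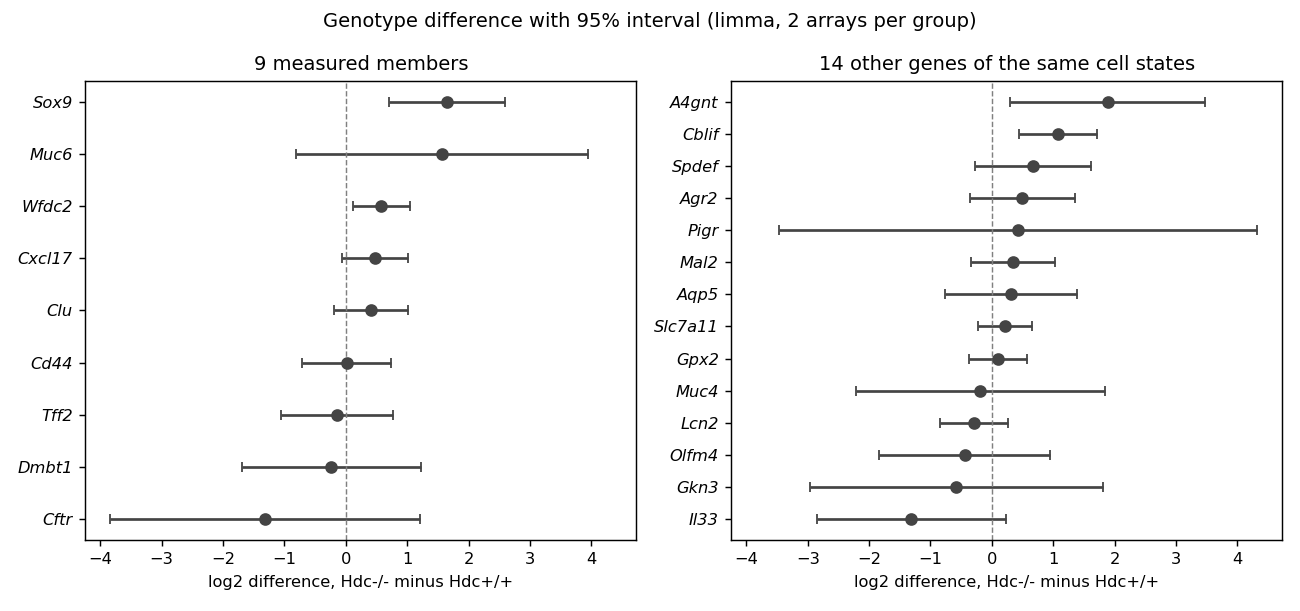
Log2 difference, Hdc-/- minus Hdc+/+, with its 95% interval from limma (horizontal axis) for the 9 measured members and for 14 other genes of the same cells (vertical axis, 1 row per gene). The intervals of Sox9, Wfdc2, A4gnt and Cblif lie above 0, and the intervals for Muc6 and Cftr run from -0.82 to 3.95 and from -3.84 to 1.21.

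Several mucous genes of the wider list had Hdc-/- array 1 apart as high, as Muc6 did. There were 4 such genes of the 10 that spanned at least 1 log2 unit, namely A4gnt, Spdef, Agr2 and Aqp5. The share over all genes of that span was 15.5%. Of the 14 measured genes of this list 10 spanned that much, against 8.37% of all genes. Spdef read 7.29 on Hdc-/- array 1 and between 5.94 and 6.15 on the other 3 arrays. Agr2, a disulfide isomerase needed for mucin folding, read 11.15 there and at most 10.33 elsewhere. Aqp5, a water channel of antral and metaplastic glands, read 5.91 there and between 4.67 and 5.25 elsewhere. Of the 7 antral gland genes listed, which include Muc6, 4 spanned at least 1 log2 unit. Of these 4, 2 (Gast and Nkx6-3) had Hdc-/- array 1 apart as low and 1 (Muc6) had it as high. The remaining 1 (Sst, the somatostatin gene) had Hdc-/- array 2 as high. Over all 1856 genes of that span, 139 had Hdc-/- array 1 as low and 137 had Hdc-/- array 2 as high. Sst read 7.84 and 7.08 on the Hdc+/+ arrays and 7.85 and 9.63 on the Hdc-/- arrays. Gast, the gastrin gene, read 5.18 on Hdc-/- array 1 and at least 6.70 elsewhere, and Nkx6-3 read 5.30 against 6.13 to 6.35. Pdx1, a transcription factor of the antrum and duodenum, read 4.42 against 4.69 to 4.97. It spanned only 0.55, under the floor of 1 log2 unit, as did Lgr5 at 0.35 and Axin2 at 0.02 from the same list. Axin2, read from the brighter of its 2 probe sets, was at 4.72 on every array but Hdc-/- array 2, at 4.69. Whether that probe set responds to Axin2 RNA was not tested. The part of regional sampling in these values was not tested.

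Other genes of the list shared the pattern of Dmbt1. Pigr, the receptor that carries immunoglobulin A across epithelium, read 7.15 and 9.90 on the Hdc+/+ arrays and 11.18 and 6.73 on the Hdc-/- arrays. Gkn3, a gastrokine of neck cells that is also on the pit cell list used above, read 6.61 and 8.28 against 8.22 and 5.52. Both were parted across genotypes with Hdc+/+ array 2 and Hdc-/- array 1 high. Muc4, a membrane mucin, was set apart by Hdc-/- array 2 at 5.99, against 7.34 to 8.65 elsewhere.

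**Figure D4:**
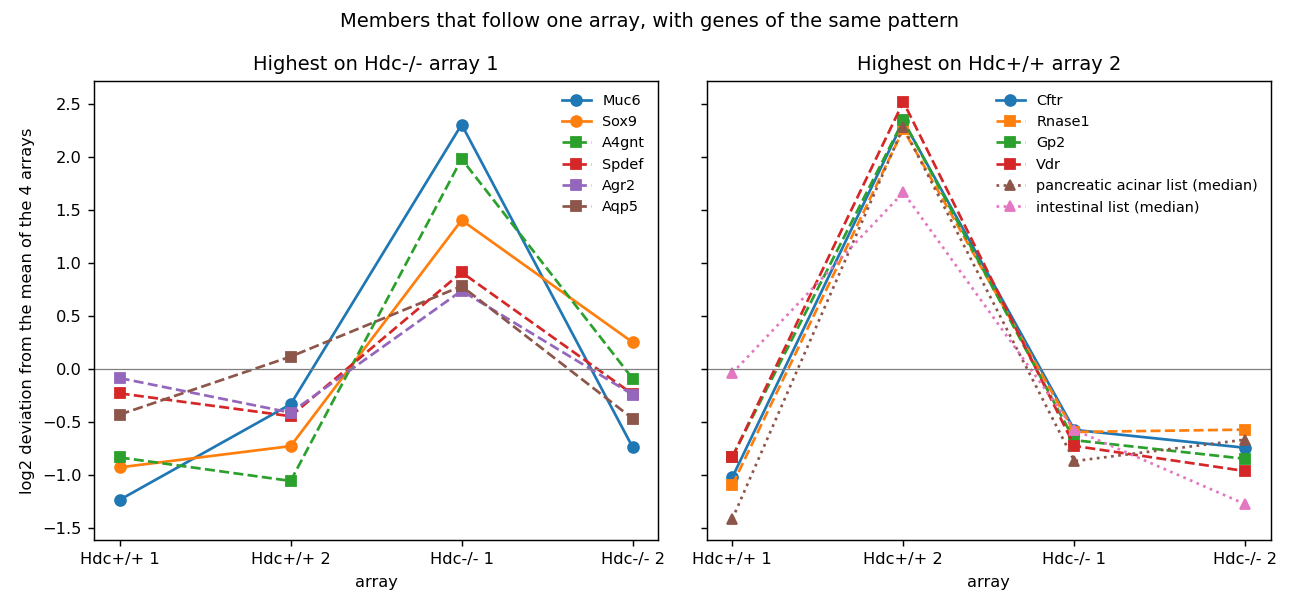
Log2 deviation from the mean of the 4 arrays (vertical axis) on each array (horizontal axis), 1 line per gene, and dotted lines for list medians. On the left, Muc6, Sox9, A4gnt, Spdef, Agr2 and Aqp5 are highest on Hdc-/- array 1, with Muc6 at 2.30. On the right, Cftr reaches 2.33 on Hdc+/+ array 2 together with the 3 genes nearest to it and the pancreatic and intestinal lists.

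The genes with the values most like each member were ranked by the root mean square distance between mean-centred values over the 4 arrays, which shows likeness over 4 points and no more. For Muc6 the nearest were Mcpt2, an immunoglobulin kappa variable segment and Pmm1, at 0.22, 0.25 and 0.27. For Sox9 they were Retnlg, Tmem178 and H60b, at 0.08, 0.12 and 0.13. For Cftr they were Rnase1, Gp2 and Vdr, at 0.10, 0.12 and 0.19, and Rnase1 is also on the pancreatic acinar list used above. For Dmbt1 they were Sccpdh, Atp2b1 and Scin, at 0.10, 0.15 and 0.17, and for Tff2 they were Phf6, Iws1 and Depdc1a, at 0.01, 0.04 and 0.04. Among the members themselves, Tff2 and Cd44 were nearest at 0.15, and Muc6 and Cftr were farthest apart at 1.96.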

How the data were processed

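The authors deposited log2 values per probe set that had been through RMA, per the submitters' processing notes. Those notes list the tools oligo and Affymetrix Power Tools as well, with no version. The sources used here do not give the summarisation level, filters or genome build. Of 41345 probe sets, 23521 had 1 gene symbol, and a gene with several was represented by its brightest probe set by mean over the arrays, which left 22180 genes. Each measured member had 1 probe set. No background values were used, so detection could not be judged, and the number of arrays limits precision.

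All genes were fitted together with limma (version 3.58.1 in R 4.3.3; lmFit, eBayes, no covariate), with Benjamini-Hochberg adjustment over all genes at 0.05. Differences are Hdc-/- minus Hdc+/+, and SE is the moderated standard error. On simulated data with 22180 genes limma called 2% of genes changed by 1 log2 unit, 90% at 2 and 98% at 4, with 4 false calls. The simulation drew noise separately for each gene, without tissue differences that many genes share on an array. Its rates may therefore not hold for the real arrays. There the hepatocyte marker Alb differed by -7.02 and did not pass (limma adjusted p = 0.0611). A member that did not pass is not shown to be unchanged. The members and lists were chosen with earlier results of these data known. All members were named, and from the wider list up to 4 genes with the smallest p. Agr2, Aqp5, Pigr, Gkn3, Muc4, Gast, Nkx6-3, Pdx1 and Sst were named after their values were seen, for their pattern. So were Alb, H2-Ea, Lgr5, Axin2, Mboat4, Ctsc and Kcne2, to complete the description. Alternatives changed the probe set rule, features tested, dim-gene filter, normalization, prior, replicate block and arrays.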

Additional observations from a re-analysis of the deposited data

How the results depend on the processing

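Of 107 values of members under 12 alternatives, 100 kept their direction and their side of the limma threshold. Each member had 1 probe set, so the probe set rule, features tested, dim-gene filter, prior and replicate block could not change its difference. Under those settings only the side of the threshold could move, so the count of 100 is partly fixed by the design. The 6 reversals all came from leaving out 1 array. Cd44 was -0.17 without Hdc+/+ array 1 and -0.35 without Hdc-/- array 1, Cftr was 0.36 and Dmbt1 0.48 without Hdc+/+ array 2, and Tff2 was 0.40 and Dmbt1 0.39 without Hdc-/- array 2. Over the 4 such fits Cd44 ran from -0.35 to 0.39, Cftr from -2.99 to 0.36, Dmbt1 from -0.95 to 0.48 and Tff2 from -0.68 to 0.40. The remaining value is Cftr without Hdc+/+ array 1, which passed. With 1 array left out, the number of members called ranged from 0 to 1 and the number of genes called from 0 to 161, each fit taking the lone array to vary like the other group. The count of genes called, 1 as reported, was 0 with every probe set tested and 5 with a trended and robust prior. The count of members parted by genotype, 0 as reported, was 1 after quantile normalization, with no floor on the span and with a floor of 0.5. The cause was not tested.

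The shared replicate numbers did not establish pairing: with the replicate block limma called 7 genes and 0 members, and deviations of same-numbered arrays correlated at -0.12 across genes. A crossed replicate block, chosen after seeing the data, called 0 genes, with 2106 at an unadjusted p under 0.05. Signal over background could not be assessed for any member.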
